A study of Mus musculus with 16 samples.

Results

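Lung transcripts of mice fed selenocystine were compared with those of untreated mice. The comparison took every array labelled SECY, 4 in all, and every array labelled Untreated, also 4, which makes 8 of the 16 arrays of the series. All mice were female and of strain A/J, an inbred strain prone to lung tumours, and each array held the lung RNA of 1 mouse, called a biological replicate in the labels. The mice were first kept on unsupplemented AIN-76 chow. Untreated mice stayed on it, with 0.35 ppm selenium, and SECY mice received it with 15 ppm selenocystine for 10 days. NNK and NNK+SECY, with 4 arrays each, enter the filter of probes and the fit of all 16 arrays, and so its estimate of the spread. Their values are given only where named. NNK, a tobacco-specific nitrosamine, was given to both groups as 1 intraperitoneal injection of 0.2 mL of saline, with a dose written in the labels as 10 uM, which may stand for an amount. NNK+SECY mice began the selenocystine diet 3 days later, and mice of both groups were killed 13 days after the injection.

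Selenocystine is the oxidised form, a diselenide, of the amino acid selenocysteine, which is built into a small family of enzymes called selenoproteins. Glutathione peroxidases and thioredoxin reductases, which remove peroxides and keep protein thiols reduced, are members of that family. A second set of protective enzymes is switched on by the transcription factor NRF2 (gene Nfe2l2), which the adaptor KEAP1 marks for degradation until electrophiles or oxidants modify KEAP1. NRF2 binds antioxidant response elements near genes for quinone reduction, glutathione conjugation, glutathione and NADPH supply, and heme and iron handling.

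Each array carried the mouse's own RNA in Cy5 (red) and, in Cy3 (green), the same pool, an equal mix of the RNA of Untreated 1 to 4. Values by array are log2(Cy5/Cy3), so 0 means the level of the pool. A difference is the SECY mean minus the Untreated mean on that log2 scale, given with its standard error (SE) from a limma fit. A gene was called where Benjamini-Hochberg adjusted p fell below 0.05. Its value is that of its brightest probe tested, and other probes are given where they are named. Each gene's n is 4 arrays per group unless missing values are stated.

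Median spot signal was 71.2 to 86.4 in Cy5 on Untreated and 89.7 to 105 on SECY arrays, and 67.5 to 72.9 against 79.4 to 85.5 in Cy3. Between 70.4% and 71.3% of spots were well above background in Cy5 on Untreated arrays, and 75.0% to 78.5% on SECY arrays. The headers give slide barcodes, numbered here in order, and arrays of 1 barcode are taken as 1 slide. Untreated arrays have slides 1 to 4 and SECY arrays slides 5 to 8, all scanned on the same day. Slide set and diet therefore cannot be told apart. NNK arrays share the barcodes of slides 1 to 4 and NNK+SECY arrays those of slides 5 to 8, but were scanned on another day. The pool itself, identical RNA on every array, gave different Cy3 signal between the slide sets at adjusted p below 0.05 in 7197 of 21254 genes (33.9%), a test chosen after the data were seen. The measure reported is the ratio, with the change of each dye given beside it for part of the genes. SECY 3 stood apart, with a mean correlation of 0.0311 with the other arrays of its group, against 0.279 to 0.388 for SECY 1, 2 and 4. Among lung markers, Sftpc (surfactant protein C of alveolar type 2 cells) and Scgb1a1 (secretoglobin of club cells) were saturated on all 8 arrays. So was Cbr2, a carbonyl reductase in the club cell list. No difference is given for these genes, but they stay in the counts and medians of their lists.

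After the diet, 47 genes were called higher (0.221% of 21254 tested) and 16 lower (0.0753%), 63 in all (0.296%). The rises were led by enzymes that reduce quinones, conjugate glutathione, repair peroxiredoxins and cleave esters. They ran from 0.24 to 1.48, with a median of 0.51, which is to say from 1.18-fold to 2.79-fold. Of the genes called higher, 43 carry a gene name and 4 only a clone or accession. Of those called lower, 8 are named. By probe, 87 of 30738 were called (0.283%), 60 higher and 27 lower. SECY arrays lay wholly above Untreated arrays in 1.89% of all genes and wholly below in 2.26%. They did so in all 47 genes called higher and in 15 of the 16 called lower, among them Cavin2 with 1 SECY value, which the calls, made on the same arrays, largely fix.

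The number of genes called was sensitive to single arrays. Without SECY 1 it was 235, of which 55 were higher and 180 lower, and without SECY 3 it was 97, of which 67 were higher and 30 lower. With each array centred on its median in place of loess, the division between higher and lower was 40 to 28. Of the 54 called genes named here, 37 passed in every fit that left out 1 array. Of the rest, Htatip2 was lost without Untreated 2, Gstm5 without SECY 2, Gsr without Untreated 2 or SECY 2, Gstm6 without Untreated 2 or 4 and Ddit4l without Untreated 3 or SECY 2. Osgin1 and Stox1 were lost in 3 of the 8 such fits, Gsto1, Acox2 and Tmem117 in 4, Creg1, Afp and Abcc1 in 5, Acsm1 and Flot1 in 6 and Prss55 in 7. Cavin2 was lost in 5 of its 7. These genes kept their direction in all of these fits.

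The promoters of Gsta3, Txnrd1, Htatip2 and Gstm5 are shown before the values, because these genes are among the rises and the sequence before the start holds the core letters of the antioxidant response element. They were matched by symbol in the RefSeq promoter table of build GRCm38.p6, which held 37 of the 43 named genes called higher. Letters searched were TGACNNNGC on both strands, in windows from 250 bases before to 50 bases after the start. Capitals mark the match, which reads as the reverse complement in Txnrd1, and the 250 bases before the start are printed 5′ to 3′ on the gene's own strand, the plus strand in each case.

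Gsta3, a glutathione S-transferase, chr1:21240335-21240584, match beginning 121 bases before the start:
Gsta3: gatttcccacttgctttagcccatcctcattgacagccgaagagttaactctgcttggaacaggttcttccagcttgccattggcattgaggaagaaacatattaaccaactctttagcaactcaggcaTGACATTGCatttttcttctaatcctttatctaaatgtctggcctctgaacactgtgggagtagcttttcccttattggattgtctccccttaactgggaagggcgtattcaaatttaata
Txnrd1, thioredoxin reductase 1, chr10:82858956-82859205, 1 of its 3 promoters in the table, match beginning 92 bases before the start:
Txnrd1: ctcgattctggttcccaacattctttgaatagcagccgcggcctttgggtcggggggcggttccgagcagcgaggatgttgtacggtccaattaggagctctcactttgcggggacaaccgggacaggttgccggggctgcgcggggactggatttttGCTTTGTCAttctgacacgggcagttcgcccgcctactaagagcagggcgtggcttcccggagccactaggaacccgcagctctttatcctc
Htatip2, an oxidoreductase, chr7:49759262-49759511, match beginning 49 bases before the start:
Htatip2: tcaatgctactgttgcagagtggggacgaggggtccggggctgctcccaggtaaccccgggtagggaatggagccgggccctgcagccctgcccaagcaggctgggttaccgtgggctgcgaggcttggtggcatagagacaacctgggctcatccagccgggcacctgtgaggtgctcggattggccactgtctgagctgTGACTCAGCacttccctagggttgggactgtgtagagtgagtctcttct
Gstm5, a glutathione S-transferase, chr3:107895604-107895853, match beginning 42 bases before the start:
Gstm5: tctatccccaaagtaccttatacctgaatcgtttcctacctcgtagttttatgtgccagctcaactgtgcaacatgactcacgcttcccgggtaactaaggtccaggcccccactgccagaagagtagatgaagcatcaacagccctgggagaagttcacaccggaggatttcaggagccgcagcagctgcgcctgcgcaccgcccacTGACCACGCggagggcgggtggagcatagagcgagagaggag

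In the whole windows, 8 of the 37 genes had a match, beside 3781 of 27025 genes in the entire table. By promoter, that was 10 of 49 (20.4%), beside 4071 of 32851 promoters (12.4%) in the entire table. The count by promoter holds the same Acox2 site in overlapping windows, and Htatip2 by separate promoters. Srxn1, Pgd, Acox2 and Ddit4l also matched. Nqo1 had no match in its window, which says only that these letters are not in it.

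The quinone reductase Nqo1 gave 0.15, 0.19, -0.07 and 0.03 on Untreated 1 to 4 and 1.63, 1.85, 1.27 and 1.28 on SECY 1 to 4. All SECY arrays were far above all Untreated arrays, by 1.43 ± 0.13 (2.70-fold, adjusted p = 2.2e-05). Cbr3, a carbonyl reductase, rose by 0.59 ± 0.09 (adjusted p = 0.00701), from -0.08 to 0.06 on Untreated arrays to 0.38 to 0.74 on SECY arrays. These were the called members among 12 quinone and carbonyl reductases, whose median difference was 0.08. The median over all genes tested was -0.00346, and 48.1% of all genes lay above 0.

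Srxn1, sulfiredoxin, which restores overoxidised peroxiredoxins, had Untreated values of 0.17, 0.01, 0.14 and 0.03. Its SECY values were 1.61, 1.75, 1.18 and 1.15. The groups were well separated, and the difference was 1.34 ± 0.13 (adjusted p = 2.55e-05). The other probes of Srxn1 gave 0.47 and 0.61, of which 1 was called, so the direction was shared but the size was not. Among 16 genes for thioredoxin, peroxiredoxins and sulfiredoxin, only Srxn1 and Txnrd1 were called. The peroxidase Prdx6 differed by 0.41 ± 0.10 (adjusted p = 0.118) and thioredoxin, Txn1, by 0.43 ± 0.11 (adjusted p = 0.132). Prdx1 differed by 0.14 ± 0.18 with 2 SECY values missing.

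**Figure D1:**
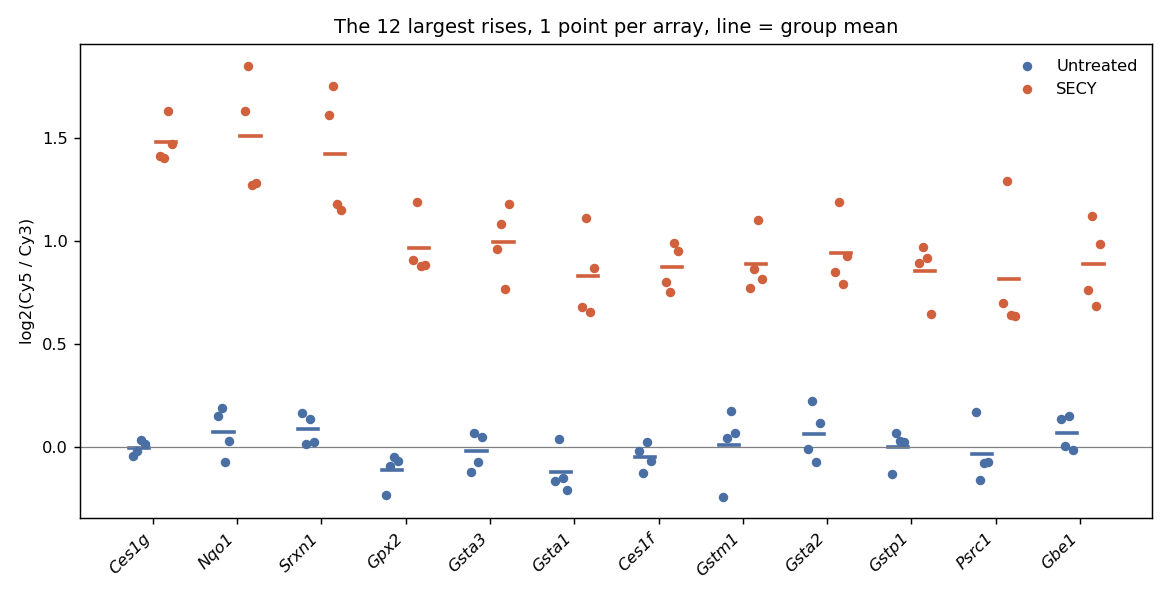
Values of log2(Cy5/Cy3) per array for the 12 named genes with the largest rises; blue points are the 4 Untreated arrays, orange points the SECY arrays and bars the group means. SECY points lie above every Untreated point in each gene, and the smallest of these rises is 0.82 (Gbe1).

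Glutathione S-transferases, which attach glutathione to electrophiles, held the most calls of any single family listed. Of 23 tested, 10 were called higher, beside 0.221% of all genes, none was called lower, and the median difference was 0.22. Gsta3 was -0.12, 0.07, -0.07 and 0.05 on Untreated and 0.96, 1.08, 0.76 and 1.18 on SECY arrays. It rose by 1.02 ± 0.08 (adjusted p = 2.13e-06), and its other probe, also called, by 0.68. Gsta1 rose by 0.95 ± 0.10, from -0.16, 0.04, -0.15 and -0.21 to 0.68, 1.11, 0.66 and 0.87. Gsta2 gave -0.01, 0.22, -0.07 and 0.12 against 0.85, 1.19, 0.79 and 0.93, a rise of 0.87 ± 0.12. These 3 genes were high on every SECY array, with no overlap.

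Gstp1, the pi-class enzyme, moved from -0.13, 0.07, 0.03 and 0.03 to 0.89, 0.97, 0.92 and 0.64. Both of its probes rose, by 0.86 ± 0.08 (adjusted p = 1.27e-05) and 0.83. In the mu class, Gstm1 went from -0.24, 0.04, 0.17 and 0.07 to 0.77, 0.86, 1.1 and 0.81, a rise of 0.88 ± 0.09 that its other probe gave as 0.54. The remaining mu-class members called were Gstm3 at 0.64 ± 0.10, Gstm2 at 0.56 ± 0.09, Gstm6 at 0.30 ± 0.05 and Gstm5 at 0.30 ± 0.05. Gstm3 and Gstm2 each lack the value of SECY 2, which was flagged. Gsto1, of the omega class, rose by 0.39 ± 0.07 (adjusted p = 0.0257). Transferases of 1 class are close in sequence, so how far each probe reads only its own gene is uncertain.

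Genes that supply glutathione and NADPH held 1 call per list. Gsr, glutathione reductase, was 0.10, 0.04, 0.15 and 0.10 on Untreated arrays and 0.61, 0.71, 0.43 and 0.45 on SECY arrays. It rose by 0.45 ± 0.08 (adjusted p = 0.0133), with other probes at 0.36 and 0.41, and was the single call among 15 genes of glutathione synthesis and recycling. Gclc, the catalytic subunit of the rate-limiting step of glutathione synthesis, differed by 0.40 ± 0.09 (adjusted p = 0.0659) with no overlap between groups. Gclm, its modifier subunit, differed by 0.37 ± 0.09 (adjusted p = 0.122), and Gss, glutathione synthetase, by 0.30 ± 0.07 (adjusted p = 0.0998). These 3 did not pass the test.

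Pgd, an NADPH-producing dehydrogenase of the pentose phosphate pathway, rose by 0.47 ± 0.07 (adjusted p = 0.002), from -0.08, 0.03, 0.12 and 0.11 to 0.58, 0.42, 0.69 and 0.39. Its other probe was also called, at 0.36. Of 13 NADPH-producing enzymes, 11 lay above 0 and only Pgd was called, with Me1 (malic enzyme) at 0.39 ± 0.10 and Taldo1 (transaldolase) at 0.27 ± 0.06. In heme and iron handling, Blvrb, a biliverdin and flavin reductase, rose by 0.68 ± 0.11 (adjusted p = 0.00754), from -0.18 to 0.06 on Untreated arrays to 0.45 to 0.82 on SECY arrays. It was 1 call among 12. Ferritin light chain, Ftl1, differed by 0.32 ± 0.07 (adjusted p = 0.1), and the heme oxygenase Hmox1 by -0.04 ± 0.07.

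Over the union of these 6 lists of NRF2-related genes, 17 of 91 tested were called higher by limma and none lower. Over all genes tested, 0.221% were called higher and 0.0753% lower. In the union 68 lay above 0, and the median difference was 0.13. At an unadjusted p below 0.05 the counts were 36 higher and 0 lower, and 8.31% of all genes tested passed that threshold in either direction. List medians by array were -0.03 to 0.00071 on Untreated and 0.07 to 0.14 on SECY arrays, so the groups did not overlap. The lists were drawn up with earlier results of these data known, and their counts are not independent evidence. Of 14 regulators of the pathway tested, none was called, and 0 had an unadjusted p below 0.05 (limma). Of these regulators 11 lay above 0, with a median difference of 0.08. Nfe2l2 differed by 0.04 ± 0.10 (95% interval -0.16 to 0.24) and Keap1 by 0.14 ± 0.07 (95% interval -0.01 to 0.29). Catalase, Cat, differed by -0.04 ± 0.08 and superoxide dismutase 1, Sod1, by 0.17 ± 0.05 (adjusted p = 0.194).

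**Figure D2:**
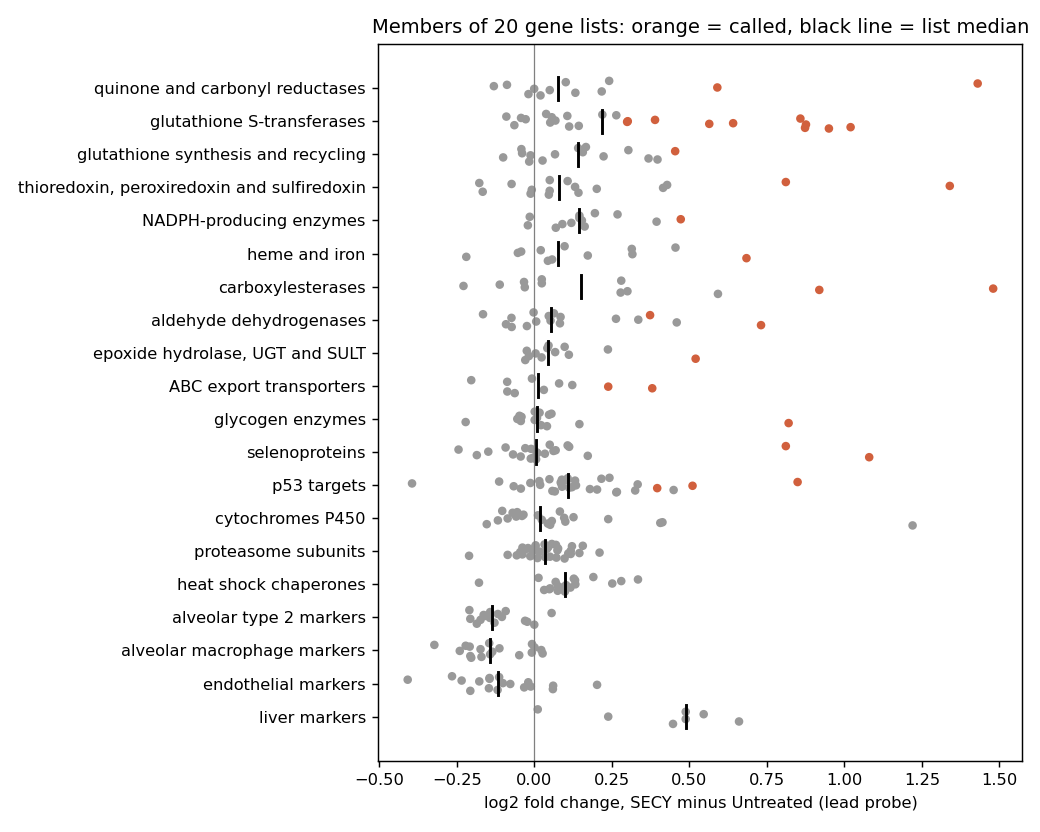
Difference of SECY minus Untreated (log2, brightest probe) for each tested member of 20 gene lists, orange where called and grey where not, with the list median as a black bar. Orange points are all to the right of 0 and are most frequent among glutathione S-transferases (10 of 23), and no marker list shown has one. Not shown are the insulin-like growth factor axis, which holds the lower call of Igfbp3, and the club cell list, which holds Aldh1a1.

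Of 22 selenoproteins tested, the family that carries selenocysteine, 2 were called higher and none lower, beside 0.221% and 0.0753% of all genes. Above 0 lay 12 of them, and the median difference was 0.0059. At an unadjusted p below 0.05, 3 were higher and 2 lower (limma), beside 8.31% of all genes in either direction. Gpx2, a glutathione peroxidase best known from gut epithelium, had -0.23, -0.09, -0.05 and -0.07 on Untreated and 0.91, 1.19, 0.88 and 0.88 on SECY arrays. It rose by 1.08 ± 0.11 (2.11-fold, adjusted p = 5.57e-05). Txnrd1, cytosolic thioredoxin reductase, moved from 0.10, -0.07, 0.06 and 0.02 to 1.08, 0.95, 0.66 and 0.67, by 0.81 ± 0.09 (1.75-fold, adjusted p = 0.00017). Both were clear of every Untreated array.

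None of the other selenoproteins tested was called. Gpx1, the main cytosolic peroxidase, differed by -0.00466 ± 0.09 (95% interval -0.20 to 0.19). Gpx3, the plasma peroxidase, differed by -0.04 ± 0.14 and Gpx4, which reduces lipid peroxides, by 0.17 ± 0.07 (95% interval 0.02 to 0.33, adjusted p = 0.549). Selenop, the selenium transport protein, gave 0.24, 0.24, -0.10 and -0.06 on Untreated and -0.02, -0.07, -0.93 and 0.36 on SECY arrays, a difference of -0.24 ± 0.21 in which SECY 3 was lowest and SECY 4 highest. Selenow (95% interval -0.24 to 0.06), Selenof (-0.22 to 0.09) and the mitochondrial reductase Txnrd2 (-0.05 to 0.26) all had intervals that include 0. The 2 selenoproteins lower at an unadjusted p below 0.05 (limma) had intervals below 0, -0.35 to -0.02 and -0.30 to -0.00022. Of 19 genes for selenium handling and selenocysteine insertion, none was called and 1 had an unadjusted p below 0.05 (limma), with the selenium-binding protein Selenbp1 at 0.12 ± 0.13.

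Carboxylesterases, which cleave esters of drugs and lipids, held the largest rise of all genes. Ces1g was -0.04, -0.02, 0.03 and 0.01 on Untreated arrays and 1.41, 1.40, 1.63 and 1.47 on SECY arrays, a difference of 1.48 ± 0.08 (2.79-fold, adjusted p = 6.25e-08), and its other probe gave 1.37. Its relative Ces1f went from -0.02, -0.13, 0.03 and -0.07 to 0.80, 0.75, 0.99 and 0.95, a rise of 0.92 ± 0.09 (adjusted p = 2.2e-05). Spread within each group was small next to the gap. These were the 2 calls among 12 carboxylesterases, which are close paralogs, so signal from relatives is not separated.

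Ces1g and Ces1f are also abundant in liver, and the arrays differed in liver transcripts within both groups. Albumin, Alb, was -1.97, -1.80, 1.19 and -1.33 on Untreated and -1.61, -1.69, -0.45 and 2.47 on SECY arrays. The median of 7 liver markers was -0.73, -0.68, 1.08 and -0.46 on Untreated and -0.60, -0.57, -0.13 and 2.38 on SECY arrays. Untreated 3 and SECY 4 were thus high in both measures, and none of the 7 markers was called or had an unadjusted p below 0.05 (limma). Apoa2, Fgb and Ahsg, which encode an apolipoprotein, a fibrinogen chain and fetuin, followed the same arrays. Ces1g was 0.03 on Untreated 3, the liver-high control array, and 1.41 and 1.40 on SECY 1 and SECY 2, where liver markers were low. With Untreated 3 and SECY 4 both left out, a setting chosen after the data were seen, 44 genes were called, 15 of them NRF2-related. Whether liver RNA had a part in the values of Ces1g and Ces1f was not tested.

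**Figure D3:**
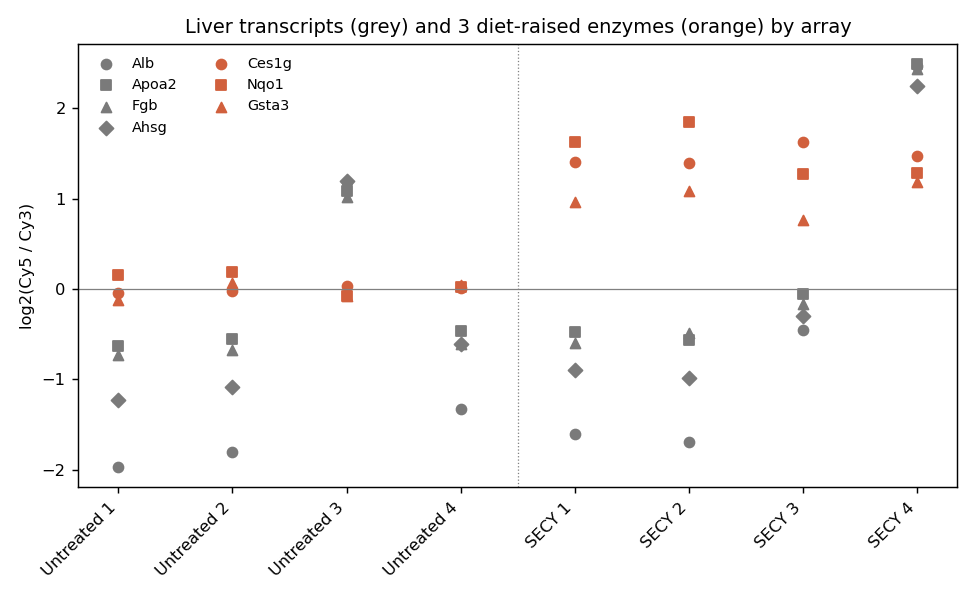
Values of log2(Cy5/Cy3) on each of the 8 arrays for 4 liver transcripts (grey) and for Ces1g, Nqo1 and Gsta3 (orange). Grey points are high on Untreated 3 and SECY 4 only, and orange points are near 0 on all Untreated arrays and between 0.76 and 1.85 on all SECY arrays.

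Genes of other families of foreign-compound metabolism were called as well. Aox1, aldehyde oxidase, was 0.01, -0.20, -0.13 and -0.28 on Untreated and 0.80, 0.57, 0.51 and 0.76 on SECY arrays, a rise of 0.81 ± 0.08 (adjusted p = 3.03e-05). Ugt1a6b, a glucuronosyltransferase, rose by 0.80 ± 0.11 over 3 SECY arrays, SECY 2 having no value, while its other probe gave 0.14 and was not called. Aldh1a1, a retinaldehyde dehydrogenase, rose by 0.73 ± 0.09, also without SECY 2, and Aldh5a1, succinate semialdehyde dehydrogenase, by 0.37 ± 0.06. They were the called members of 17 aldehyde dehydrogenases, with a median of 0.05. The other probes of Aldh5a1 gave 0.03 and 0.06.

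Ephx1, microsomal epoxide hydrolase, rose by 0.52 ± 0.08 (adjusted p = 0.00701) with both of its probes called, from -0.45, -0.21, -0.09 and 0.01 to 0.29, 0.34, 0.46 and 0.24. Among 10 export pumps of the ABC family, Abcb6 rose by 0.38 ± 0.06 and Abcc1, which exports glutathione conjugates, by 0.24 ± 0.05 (adjusted p = 0.0373). The other probes of Abcc1 gave 0.10 and 0.23 and were not called, and its Cy5 change was 0.07 beside -0.17 in Cy3. Of 24 cytochrome P450 genes none was called by limma, and 1 had an unadjusted p below 0.05. Cyp1a1, which oxidises polycyclic aromatic compounds, was nonetheless 0.03, 0.26, 0.13 and -0.02 on Untreated and 1.73, 1.07, 0.87 and 1.6 on SECY arrays. Its groups did not overlap, but the difference of 1.22 ± 0.29 (95% interval 0.60 to 1.84) did not pass (adjusted p = 0.107). Cyp2a5, whose rodent enzyme activates NNK, differed by 0.41 ± 0.35 (95% interval -0.34 to 1.16), with Untreated 1 at -1.04 and SECY 1 at -0.51 below the rest, and its probe may also read the near-identical Cyp2a4. Cyp2f2, a club cell P450, differed by -0.09 ± 0.08, Cyp2e1 by 0.24 ± 0.34, and Mgmt, which removes alkyl groups from guanine, by 0.03 ± 0.06.

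Further called genes lay outside these families. Gbe1, the glycogen branching enzyme, was 0.14, 0.01, 0.15 and -0.01 on Untreated and 0.76, 1.12, 0.69 and 0.98 on SECY arrays. It rose by 0.82 ± 0.10 (adjusted p = 0.000627) and was the single call among 15 glycogen enzymes. Dglucy, D-glutamate cyclase, rose by 0.49 ± 0.05, and its other probe was at -0.03. Entpd5, a nucleotide hydrolase of the endoplasmic reticulum, rose by 0.47 ± 0.08. Acox2, a peroxisomal oxidase of branched lipids, rose by 0.46 ± 0.08, Acsm1, a medium-chain acyl-CoA synthetase, by 0.41 ± 0.08 (adjusted p = 0.0485), and Liph, a phospholipase, by 0.32 ± 0.05, its other probe being at 0.23. Of 29 listed genes that make or oxidise fatty acids, Acox2 and Acsm1 not among them, none was called, and the median was 0.00529. At an unadjusted p below 0.05 (limma) 2 were higher and 2 lower, beside 8.31% of all genes in either direction.

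Osgin1, an oxidative stress-induced growth inhibitor, rose by 0.50 ± 0.09 with another probe at 0.26. Slc48a1, a heme transporter, rose by 0.50 ± 0.07, and its other probe, also called, by 0.41. Htatip2 rose by 0.32 ± 0.05 with both probes called. Also called higher were Tmem117 at 0.49 ± 0.09, Creg1 at 0.29 ± 0.06, with other probes at 0.24 and 0.33, and Flot1, a membrane scaffold protein, at 0.32 ± 0.07. Flot1 just passed (adjusted p = 0.0479), with Cy5 at 0.14 and Cy3 at -0.18, so the pool's signal changed more in size. Afp, alpha-fetoprotein, a fetal liver protein, was 0.18, 0.00226, 0.05 and -0.11 on Untreated and 0.52, 0.56, 0.27 and 0.51 on SECY arrays, a rise of 0.44 ± 0.08 (adjusted p = 0.0257) that did not follow the arrays high in Alb.

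Among 32 targets of the tumour suppressor p53, 3 were called higher and none lower, beside 0.221% and 0.0753% of all genes. Above 0 lay 27, with a median of 0.11. Unadjusted p was below 0.05 in 10, all higher, beside 8.31% of all genes in either direction. Psrc1, a spindle protein, was 0.17, -0.16, -0.08 and -0.07 on Untreated and 0.70, 1.29, 0.64 and 0.64 on SECY arrays, a rise of 0.85 ± 0.14 (adjusted p = 0.0079). Its other probes gave 0.04 and 0.31 and were not called, so the probes disagree on size. Gdf15, a stress-induced secreted factor, rose by 0.51 ± 0.07 (adjusted p = 0.000838), from -0.24, -0.05, -0.07 and -0.12 to 0.40, 0.44, 0.53 and 0.21. Ddit4l, an inhibitor of mTOR signalling, rose by 0.40 ± 0.07, with other probes at 0.40 and 0.16. Cdkn1a, the cell-cycle inhibitor p21, differed by 0.45 ± 0.22 (adjusted p = 0.643) with overlapping groups, and the nuclease Aen by 0.26 ± 0.05 (adjusted p = 0.0527).

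Over the 47 genes called higher, the median change of the Cy5 signal was 0.55 and that of Cy3 0.00813, and in 45 of them the Cy5 change was the larger in size. For Ces1g Cy5 changed by 1.95 and Cy3 by 0.47, for Nqo1 by 1.83 and 0.40, and for Gpx2 by 1.18 and 0.11. Of 19 genes called higher with more than 1 probe tested, 12 had another probe called higher, and in 18 every probe lay above 0, Dglucy being the exception. The rises in ratio were thus mainly changes in Cy5.

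Genes called lower numbered 16 against 47 higher, a balance that turned in other fits: lower calls outnumbered higher ones with a replicate block (72 to 52), with array weights (115 to 103) and without SECY 1 (180 to 55). In 7 of the 16 genes called lower the Cy3 signal of the pool had risen by more than 0.3, a limit chosen after the data were seen, while 11.8% of all genes had a Cy3 change of more than 0.3 in either direction. The median over the 16 was -0.26 in Cy5 and 0.11 in Cy3, and in 9 the Cy5 change was the larger. Of the 4 genes called lower with more than 1 probe tested, none had another probe called. In those 7 genes part of the fall in ratio is a rise of the pool's own signal on slides 5 to 8, the source of which was not tested.

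The largest falls in ratio among called genes, with probes well above background in both groups, were of transcripts known only as clones. The clone 5031425E22Rik differed by -1.74, with Cy5 at -0.21 and Cy3 at 1.53. AK081879 differed by -1.54, with Cy3 at 1.29, while its other probe was at -0.07 and not called. A830018L16Rik was also called lower, but neither of its probes was well above background in Cy5 on any Untreated array, so no fold is given. Its Cy5 change was 0.17 and its Cy3 change 1.02. In each of these the Cy3 change was larger in size than the Cy5 change. A probe of Ppp2r5e, a phosphatase subunit, showed the same: it differed by -1.35 with Cy3 at 1.73, while the other 3 probes of the gene lay between -0.01 and 0.09. In all, 12 genes were called by a probe other than the brightest alone, 11 of them lower.

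Igfbp3, a secreted binding protein of insulin-like growth factors, fell in ratio with little change in the pool's signal. It was -0.06, 0.08, 0.06 and -0.08 on Untreated and -0.56, -0.66, -0.36 and -0.68 on SECY arrays, lower by 0.57 in size (-0.57 ± 0.08, adjusted p = 0.00182), with Cy5 at -0.59 and Cy3 at -0.02. Its other probe gave -0.13 and was not called. It was the single call among 14 genes of the insulin-like growth factor axis, in which Igfbp2 differed by 0.55 ± 0.17 (adjusted p = 0.263).

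Mamdc2, an extracellular matrix protein, fell from 0.01, 0.06, 0.17 and 0.20 to -0.53, -0.63, -0.36 and -0.47, with a difference of -0.61 ± 0.09 (adjusted p = 0.00414), Cy5 at -0.67 and Cy3 at -0.06. Stox1, a transcription factor, differed by -0.33 ± 0.06 and Itpr1, a calcium channel of the endoplasmic reticulum, by -0.24 ± 0.04 (other probe -0.14, not called), both with SECY below every Untreated array and Cy3 within 0.05 of no change. Cavin2, a coat protein of caveolae, differed by -0.54 ± 0.09 (adjusted p = 0.0493), but only SECY 3 had a value, the spots of the other SECY arrays being flagged, and the fit takes that lone array to vary like the other groups. Sox17, an endothelial transcription factor, differed by -0.41 ± 0.09 and did not pass (adjusted p = 0.0559).

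For the other named falls the pool's signal moved more than the mouse's own. Psd4, an exchange factor for small GTPases, was 0.08, 0.01, 0.03 and -0.08 on Untreated and -0.55, -0.42, -0.53 and -0.64 on SECY arrays, a difference of -0.54 ± 0.06 with Cy5 at -0.14 and Cy3 at 0.40. Nxf3, an RNA export factor, differed by -0.51 ± 0.08 with Cy5 at -0.02 and Cy3 at 0.49. Prss55, a serine protease, differed by -0.75 ± 0.15 (adjusted p = 0.0444), and SECY 1 at 0.14 lay among the Untreated values. Its Cy3 change was 0.63.

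**Figure D4:**
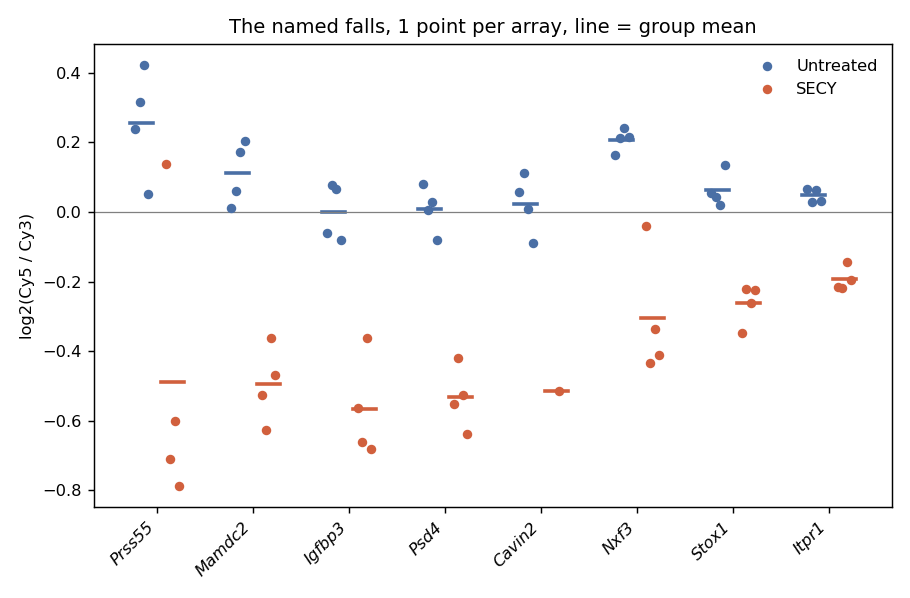
Values of log2(Cy5/Cy3) per array for the 8 named genes called lower, with Untreated arrays in blue, SECY arrays in orange and bars at the group means. Groups are apart in all but Prss55, where SECY 1 lies among the Untreated points, and Cavin2 has 1 SECY value.

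**Figure D5:**
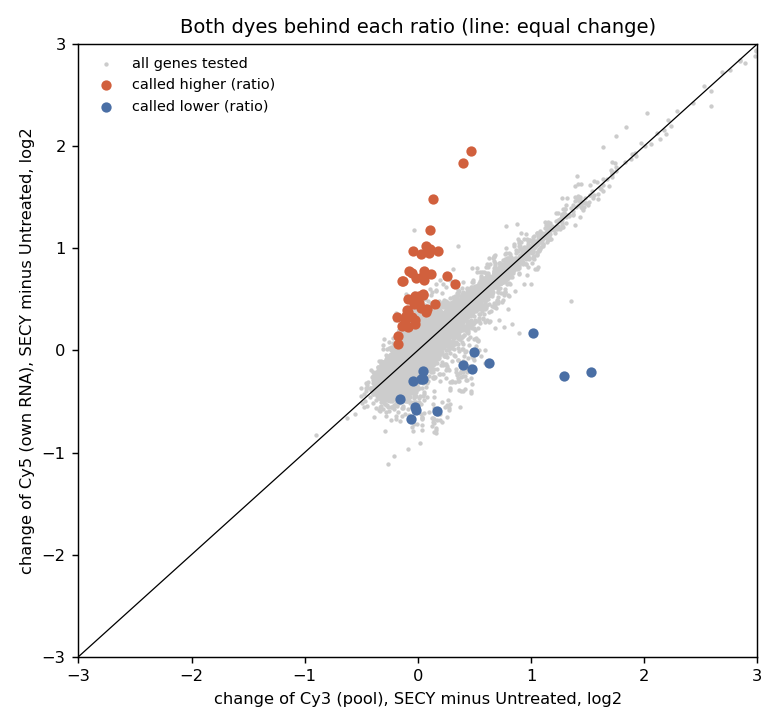
Change of the Cy3 signal of the pool (x axis) against change of the Cy5 signal of the mouse's own RNA (y axis), SECY minus Untreated in log2, for all genes tested, with genes called higher in orange and lower in blue. Most genes follow the line of equal change; orange points lie above it near a Cy3 change of 0, and several blue points lie to the right at Cy3 changes up to 1.53.

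Marker lists of lung cell types gave no call except Aldh1a1, which is also in the club cell list of 14. Of 16 alveolar type 2 markers only Sftpc, which was saturated on all 8 arrays, lay above 0, and the median was -0.14. Their list medians were -0.14 to 0.02 on Untreated and -0.22 to -0.11 on SECY arrays, so the groups overlapped. Of 18 alveolar macrophage markers 3 lay above 0 (median -0.14), of 18 endothelial markers 3 (median -0.12), and of 20 fibroblast and smooth muscle markers 2 (median -0.11). At an unadjusted p below 0.05 (limma) 3, 4, 3 and 4 of these lists' members were lower and 0 higher, beside 8.31% of all genes in either direction. Some other lists of lung cells did not share this direction. Above 0 lay 16 of 21 ciliated cell markers (median 0.07) and 5 of 8 basal and squamous markers (median 0.04). So did 8 of 14 club cell markers (median 0.03), the saturated Scgb1a1 and Cbr2 included. Further lists leaned down as well. Of 13 alveolar type 1 markers 5 lay above 0 (median -0.09), and of 24 T and NK cell markers 7 (median -0.07). Of 14 monocyte and neutrophil markers 6 did (median -0.08), and of 14 MHC class II genes 5 (median -0.05). Above 0 were also 6 of 16 B and plasma cell markers (median -0.05). For platelets it was 1 of 9 (median -0.16), and for cardiac muscle 3 of 17 (median -0.11). Fewer cells of a type and less RNA per cell cannot be told apart in whole lung, and the part of these shifts in the falls of Igfbp3, Mamdc2 and Cavin2 was not tested.

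The same diet was also given after NNK, so the genes called here could be read in a second pair of groups. The arrays of that pair were in the same fit and share its estimate of the spread. The reading is therefore not independent of the calls above. NNK+SECY and NNK share the pool in Cy3 and lie on slides 5 to 8 and 1 to 4, so diet and slide set cannot be told apart there either. All 47 genes called higher lay above 0 in NNK+SECY minus NNK, with a median of 0.46, and 41 were called higher, against 0.306% of all genes. Of the 16 called lower, 15 lay below 0 and 13 were called lower, against 1.44% of all genes.

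Ces1g rose by 1.24 in that pair (adjusted p = 1.41e-06), Nqo1 by 1.38, Srxn1 by 1.29, Gpx2 by 0.87, Gsta3 by 1.02 and Txnrd1 by 0.79. Gclc, not called without NNK, differed by 0.50 (adjusted p = 0.0034). Cyp1a1 differed by 1.01 and was again not called (adjusted p = 0.129). Genes that were called without NNK but not after it included Flot1 at 0.03 (adjusted p = 0.935) and Itpr1 at -0.06 (adjusted p = 0.706). The interaction, the diet effect after NNK minus that without it, was called by limma for 1 gene of all tested, AK081879, so for no other gene was the diet effect shown to differ with NNK.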

How the data were processed

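Lung RNA of 16 mice, 4 per group, was measured on 2-colour Agilent arrays with no dye swap. Spots were read by the authors using Feature Extraction 8.1.1.1, as the headers state. What they deposited is linear intensity of spots and background for each dye, processed intensity, and the log10 of red over green. A value table by the authors holds log2 ratios, equal within 0.005 to that log10 ratio after conversion. The annotation build of the arrays is not stated in the labels or headers, so probes carry no positions.

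Of 43790 features, 41534 were not controls, and they held 41174 distinct probes. A RefSeq gene table named 22072 probes by accession, 6280 by symbol and 4226 by synonym, and 8596 kept the array's name. Normexp (offset 50) and loess were run in limma 3.58.1 under R 4.3.3, with version 1.17.8 of data.table, giving weight 0 to controls and flagged outliers. Tested probes had to be well above background in Cy5 across all 4 arrays of some group: 30738 probes and 21254 of 27703 gene names passed. Of the probes tested, 478 lack a value on at least 1 of the 8 arrays. Signals per dye were taken after Aquantile scaling. One limma model with a mean per group covered the 16 arrays, two-sided, adjusted over all probes. The number of arrays limits the precision. The fit was tested on simulated data.

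Genes named are the called genes that have a gene name, up to 4 members of each list with the smallest p, and genes such as Gpx1 named whatever their values. Not every gene this takes is printed. Clones and probes named beside them were chosen after their values were seen. Members and lists were chosen with earlier results of these data known. Alternatives varied background correction, normalization, the filter, the arrays fitted, weights, blocks, a 1.5-fold threshold, the dye used and each array left out.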

Additional observations from a re-analysis of the deposited data

Results flagged for a closer look

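In 7 of the 142 groups of 4 arrays examined, 1 array lay far from the other 3 relative to the range of its group, and chance sets apart about 1 in 20. Afp was 0.273 on SECY 3 and 0.515 to 0.563 on the other SECY arrays. Flot1 was 0.371 on SECY 3 (others 0.13 to 0.166) and 0.00182 on Untreated 3 (others -0.173 to -0.146). Gpx2 was 1.19 on SECY 2, with the others between 0.879 and 0.908, and Psrc1 was 1.29 on SECY 2, with the others between 0.636 and 0.696. Gstm2 was -0.00781 on Untreated 3 and -0.246 to -0.218 on the other Untreated arrays. Cyp2a5 was -1.04 on Untreated 1 and 0.158 to 0.229 on the rest of its group.

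The diet effect on AK081879 differed with NNK, by an interaction of 0.891 ± 0.124 (limma, adjusted p = 0.0294), and its change without NNK lay mostly in the Cy3 signal of the pool.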

How the results depend on the processing

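Counts of called genes (63), probes (87), NRF2-related genes (17) and selenoproteins (2) came to 29, 35, 11 and 2 with only the 8 arrays fitted and to 5, 7, 2 and 0 against a 1.5-fold threshold. Array weights gave 218 genes and 283 probes, Cy5 alone 4776 genes, 7038 probes and 30 NRF2-related genes. Leaving out 1 array gave 46 to 235 genes and 60 to 315 probes. Replicate numbers are not taken to pair the mice, since not every pair correlated above 0.1, and the data do not settle it: deviations of same-numbered arrays correlated at 0.475, 0.16, 0.493 and -0.0994, and 5 of 8 arrays correlated best with their own number, a hint from the data and not the design. A replicate block gave 124 genes (52 higher, 72 lower) and 167 probes, and array weights 103 higher and 115 lower genes. Under Cy5 alone A830018L16Rik turned to 0.171, Cat to 0.0514 and Prdx1 to -0.0549. Nfe2l2 was -0.0213 with median centring and Selenop 0.0126 with array weights. Without Untreated 3 and SECY 4, chosen after seeing the data, Gpx1 was 0.0181, Gpx3 0.0743 and Nfe2l2 -0.0206. With 1 array left out, Ahsg ranged from -0.297 to 0.99, Alb from -0.27 to 1.38, Apoa2 from -0.226 to 0.896, Fgb from -0.169 to 0.968, Cat from -0.097 to 0.0128, Gpx1 from -0.0685 to 0.0507, Gpx3 from -0.176 to 0.0687, Hmox1 from -0.116 to 0.0317, Mgmt from -0.0142 to 0.056, Nfe2l2 from -0.0391 to 0.138, Prdx1 from -0.36 to 0.644, Selenbp1 from -0.00419 to 0.208, Selenof from -0.126 to 0.000509 and Selenop from -0.421 to 0.0111. None of these was called in the ratio fit except A830018L16Rik. Of the 54 called genes named, 53 kept their direction in every alternative run, and of the 35 not called, 21 did. Of those 35, array weights called 7, Cy5 alone 11 and the fit without SECY 3 called 5. Causes were not tested.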

Other observations

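Other gene groups of the lung held no called gene. Of 19 heat shock chaperones, which fold damaged proteins, 18 lay above 0 with a median difference of 0.0982, and 1 had an unadjusted p below 0.05 (limma). Of 33 proliferation genes 28 lay above 0, with a median of 0.0424, and of 33 proteasome subunits 23 did, with a median of 0.0347. Of 30 extracellular matrix genes 5 lay above 0, with a median of -0.118, and 2 were lower at an unadjusted p below 0.05, which 8.31% of all genes passed in either direction. Medians were 0.0268 for 34 DNA repair genes, 0.0121 for 34 genes of the respiratory chain, 0.0075 for 22 interferon response genes, -0.0226 for 16 clock genes and -0.0364 for 24 genes of cholesterol synthesis. The median over all genes tested was -0.00346.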
